A study of Mus musculus with 8 samples.

Results

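Acute phase genes encode plasma and membrane proteins whose hepatic output changes in inflammation. The 10 genes described here were *Saa1*, *Saa2*, *Saa3*, *Saa4*, *Lcn2*, *Orm1*, *Orm2*, *Hp*, *Apcs* and *Steap4*, chosen by name among the 18095 genes of the deposited count table and found there by their Ensembl identifiers. RNA of whole liver was sequenced from 4 HFD WT and 4 HFD *Inpp4b*-/- males. All 8 mice were 12 weeks old according to the labels and were fed a high-fat diet (HFD), so the diet was shared by both groups and no mouse on a low-fat diet was analysed here. *Inpp4b* encodes the phosphoinositide phosphatase INPP4B, and neither the labels nor the methods name a driver that would limit its deletion to one tissue. The labels give C57BL/6 as the strain background, whereas the study's methods give FVB. Counts summed to between 25893430 and 31427831 in HFD WT and between 32738435 and 36662531 in HFD *Inpp4b*-/- libraries.

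*Inpp4b* itself was counted 6, 20, 5 and 8 times in HFD WT replicates 1 to 4 and 33, 10, 9 and 14 times in HFD *Inpp4b*-/- replicates 1 to 4. The libraries labelled HFD *Inpp4b*-/- thus did not hold fewer counts of it (two-sided exact permutation test, n = 4 per genotype, p = 0.457), and each direction given below rests on the labels. These counts are few, and a count per gene cannot show which exons the reads came from. They therefore cannot tell whether the genotype labels are right. The 6 hepatocyte markers, among them *Alb* and *Apob*, summed to between 75300 and 96300 CPM (counts scaled to 1e+06 per TMM-normalized library) in every library, whereas none of the 5 adipocyte markers was among the genes in the table. *Alb* alone gave 52500 to 70800 CPM, so the hepatocyte sum mostly follows *Alb*. Single markers varied more, with *Cps1* between 1060 and 3960 CPM. *Tat* stood at 2830 CPM in HFD WT replicate 1 and at 362 to 1110 CPM elsewhere. In RNA of whole tissue, fewer cells of a type and less RNA per cell cannot be told apart.

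In an acute phase response, hepatocytes exposed to cytokines such as interleukin-6 and interleukin-1 raise the transcription of positive acute phase genes through STAT3, NF-kappa B and C/EBP transcription factors. The products bind lipid, iron, heme-containing proteins or microbes in plasma, while the output of albumin and other negative acute phase proteins declines. Serum amyloid A proteins (*Saa1* and *Saa2*) travel with high-density lipoprotein and have the widest range of induction in mouse liver, whereas *Saa4* is known as a constitutive member of the family.

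The 4 *Saa* genes lie together on chromosome 7 of GRCm38, *Saa3* from 46711998 to 46715700, *Saa4* from 46727998 to 46732603, *Saa1* from 46740497 to 46742980 and *Saa2* from 46751790 to 46754313. *Orm1* (63344560 to 63348163) and *Orm2* (63362449 to 63365878) are neighbours on chromosome 4. *Lcn2* is on chromosome 2 from 32384633 to 32388252, *Hp* on chromosome 8 from 109575128 to 109579172, *Apcs* on chromosome 1 from 172893961 to 172895041 and *Steap4* on chromosome 5 from 7960457 to 7982213. Windows of 250 bases upstream of the start site were held by RefSeq (GRCm38.p6) for 8 of the 10 genes, all but *Hp* and *Orm1*. By the gene bounds above, the *Lcn2* window (32387740 to 32387989) lay wholly inside its gene. The last 43 bases of the *Saa2* window, 24 of *Saa3* and 15 of *Steap4* lay inside their genes too. Motif counts and identities below used the full windows. Both strands were searched for the C/EBP site TTGCNNAA, the palindromic STAT site TTCNNNGAA and the kappa B consensus. The C/EBP site was found in 7 of the 8 windows, against 9.56% of 32851 windows over all genes, and *Saa4* held it at 2 positions. A STAT site was found in 2 of the 8 (*Apcs* and *Steap4*, 7.02% of all windows) and a kappa B consensus in 1 of the 8 (*Steap4*, 3.9% of all windows). The windows of *Saa1* and *Saa2* were identical at 94.8% of aligned positions, whereas *Saa1* and *Saa4* shared 49.5%. A match is a description of these letters and was not tested as a binding site. The sequences of *Saa1* and *Saa2* are shown because these genes had the widest range among the 10, *Saa4* because it is the neighbour with a narrow range and *Steap4* because it held all 3 motifs. Each reads 5′ to 3′ on the strand of its gene and stops where the annotated gene begins, with the motif matches in capitals. They span chr7:46742981-46743230 (minus strand) for *Saa1*, chr7:46751583-46751789 (plus strand) for *Saa2*, chr7:46732604-46732853 (minus strand) for *Saa4* and chr5:7960222-7960456 (plus strand) for *Steap4*.
Saa1: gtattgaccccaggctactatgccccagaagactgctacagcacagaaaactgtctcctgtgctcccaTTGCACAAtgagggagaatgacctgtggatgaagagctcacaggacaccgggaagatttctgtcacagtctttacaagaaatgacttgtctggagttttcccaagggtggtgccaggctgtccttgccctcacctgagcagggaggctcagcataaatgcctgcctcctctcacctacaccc
Saa2: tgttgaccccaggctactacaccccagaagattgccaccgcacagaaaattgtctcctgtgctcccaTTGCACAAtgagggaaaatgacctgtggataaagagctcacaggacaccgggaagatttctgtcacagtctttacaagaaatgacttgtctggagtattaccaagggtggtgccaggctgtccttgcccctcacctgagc
Saa4: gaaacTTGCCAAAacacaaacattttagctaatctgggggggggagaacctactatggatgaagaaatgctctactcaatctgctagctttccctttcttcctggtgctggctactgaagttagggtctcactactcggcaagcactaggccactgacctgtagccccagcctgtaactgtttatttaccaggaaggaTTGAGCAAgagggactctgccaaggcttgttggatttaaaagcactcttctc
Steap4: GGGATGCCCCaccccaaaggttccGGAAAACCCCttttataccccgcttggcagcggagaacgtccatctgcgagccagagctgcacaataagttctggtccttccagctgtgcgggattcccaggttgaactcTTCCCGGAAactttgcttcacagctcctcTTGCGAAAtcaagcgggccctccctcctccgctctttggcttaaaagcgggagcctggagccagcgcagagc

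The question put to the counts was whether expression of the 10 genes differed between HFD WT and HFD *Inpp4b*-/- livers, and how much mice of one genotype varied. All 10 genes had their highest level in 1 library, HFD WT replicate 1, and 8 of the 10 had their second highest in HFD WT replicate 4. HFD WT replicates 2 and 3 lay in or near the range of the HFD *Inpp4b*-/- libraries. The 2 genotypes overlapped for every one of the 10 genes, against no overlap in 8.72% of the 14866 genes tested. The fitted log2 fold change of HFD *Inpp4b*-/- against HFD WT was below 0 for all 10 genes, with a median of -1.53 (median of all tested genes 0.00275). None of the 10 passed an adjusted p under 0.10 with a fold change over 1.3 in edgeR's quasi-likelihood test, thresholds that 1.17% of all tested genes passed and 0.619% passed as lower. An unadjusted p under 0.05 was reached by 6 of the 10, against 13.9% of all tested genes in either direction and 7.14% lower. DESeq2, run with the same thresholds, called *Saa1* and *Saa2* lower, 2 of the 10, against 4.04% of the genes it tested in either direction and 2.12% lower.

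**Figure D1:**
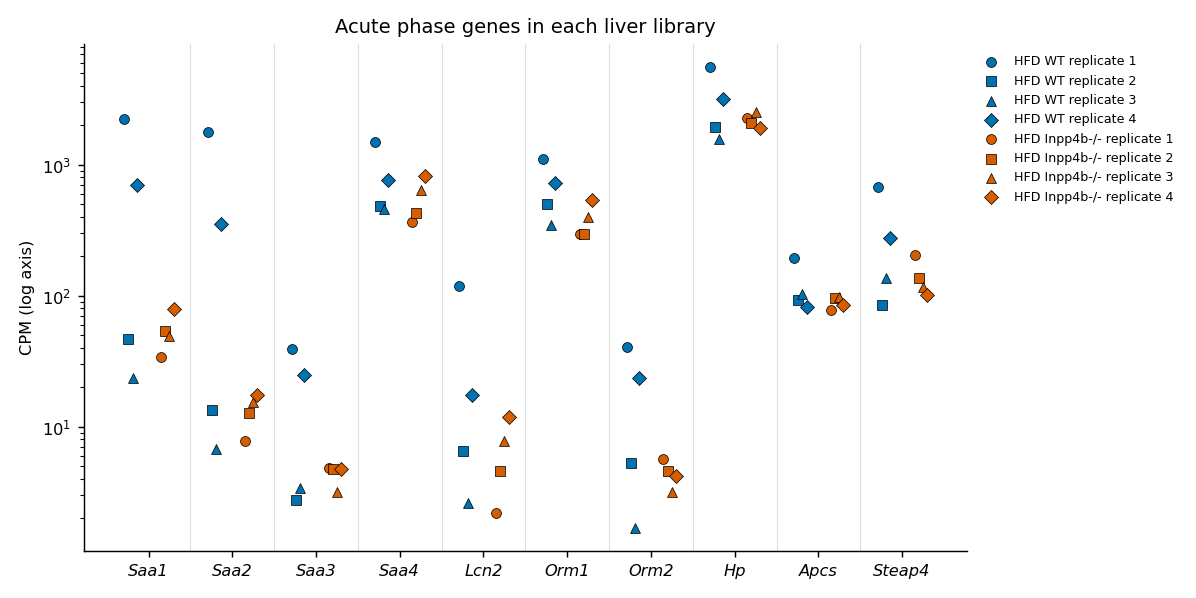
CPM of each of the 10 acute phase genes on a log axis in the 4 libraries labelled HFD WT and the 4 labelled HFD Inpp4b-/-, 1 point per library. HFD WT replicate 1 is the highest point for all 10 genes, and replicate 4 is the next for 8 of them.

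*Saa1* (ENSMUSG00000074115), an apolipoprotein of high-density lipoprotein, stood at 2226, 46.8, 23.7 and 697.5 CPM in HFD WT replicates 1 to 4. In HFD *Inpp4b*-/- replicates 1 to 4 it stood at 33.8, 54.1, 49.5 and 79.8 CPM. HFD WT replicates 1 and 4 were far above the other 6 libraries, while HFD WT replicate 3 was the lowest of all 8. The log2 fold change was -3.79 (SE 1.20, edgeR adjusted p = 0.213), and the two-sided exact permutation test on log2 CPM gave p = 0.4. DESeq2 gave an adjusted p of 0.0537.

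*Saa2* (ENSMUSG00000057465), its close paralog, stood at 1783, 13.5, 6.74 and 350.5 CPM in HFD WT replicates 1 to 4. The HFD *Inpp4b*-/- libraries gave 7.80, 12.8, 15.5 and 17.4 CPM. The same 2 HFD WT libraries were high, and the distance from the lowest to the highest HFD WT library was 265-fold, against 2.23-fold in HFD *Inpp4b*-/-. The log2 fold change was -5.34 (SE 1.51, edgeR adjusted p = 0.175, exact permutation p = 0.371). DESeq2 gave an adjusted p of 0.00874. Without HFD WT replicate 2, *Saa2* passed in edgeR as well (adjusted p = 0.0869), 1 of the 10 against 2.26% of the genes tested in that fit in either direction and 1.32% lower.

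*Saa1* and *Saa2* share sequence, so reads can be lost or assigned to the wrong copy. Of the 150-base windows of their annotated transcripts, 54 were common to both, 2.11% of those of *Saa1* and 2.03% of those of *Saa2*. No window of the other 8 genes was found in a second gene of the 10. The annotated exons took up 2478 bases of *Saa1* and 2518 of *Saa2*, nearly the whole of each gene. Windows of retained introns are thus included in these percentages. The share among windows of spliced mRNA alone was not computed and can be larger. Counted as 1 gene, *Saa1* and *Saa2* gave a log2 fold change of -4.25 (edgeR adjusted p = 0.201). The share of *Saa2* among the counts of both was 44.5% in HFD WT replicate 1 (Wilson 95% interval 44.2 to 44.8) and 33.4% in replicate 4 (32.9 to 34.0). In the other 6 libraries it lay between 17.9% and 23.8%. These intervals cover counting error only. The balance of the counts assigned to the 2 paralogs thus differed between libraries as well as their sum.

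*Saa3* (ENSMUSG00000040026), a serum amyloid A gene also expressed by macrophages and adipocytes, was read at 39.0, 2.74, 3.37 and 24.8 CPM in HFD WT. In HFD *Inpp4b*-/- it was read at 4.80, 4.78, 3.15 and 4.77 CPM. Here too HFD WT replicates 1 and 4 stood above the rest and replicates 2 and 3 did not. Its log2 fold change was -1.99 (SE 0.75, edgeR adjusted p = 0.279).

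*Saa4* (ENSMUSG00000040017), the constitutive family member, varied least among the 4 *Saa* genes over the 8 libraries and within HFD WT, but not within HFD *Inpp4b*-/-, where its SD of log2 CPM (0.533) was the largest of the 4. It stood at 1500, 486, 460.5 and 762.5 CPM in HFD WT and at 365, 427, 645 and 817 CPM in HFD *Inpp4b*-/-. HFD *Inpp4b*-/- replicate 4 exceeded HFD WT replicate 4. The log2 fold change was -0.51 (SE 0.39, edgeR adjusted p = 0.601).

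Among the genes whose products bind iron, heme proteins or small lipophilic molecules, *Lcn2* (ENSMUSG00000026822) had the widest range. It encodes lipocalin 2, which binds bacterial siderophores. Its levels were 118.5, 6.49, 2.63 and 17.4 CPM in HFD WT and 2.19, 4.55, 7.76 and 11.9 CPM in HFD *Inpp4b*-/-. HFD WT replicate 1 stood clear of the rest, while HFD WT replicate 4 lay close above HFD *Inpp4b*-/- replicate 4. The log2 fold change was -2.46 (SE 1.04, edgeR adjusted p = 0.33), and -0.42 without HFD WT replicate 1.

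*Hp* (ENSMUSG00000031722) encodes haptoglobin, which captures free hemoglobin, and was the most abundant of the 10 genes. It stood at 5581, 1940, 1574 and 3200 CPM in HFD WT and at 2277, 2075, 2543 and 1919 CPM in HFD *Inpp4b*-/-. The HFD *Inpp4b*-/- libraries lay inside the HFD WT range. Its log2 fold change was -0.48 (SE 0.34, edgeR adjusted p = 0.574), and -0.02 without HFD WT replicate 1.

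*Steap4* (ENSMUSG00000012428), a membrane reductase of iron and copper, was the third gene of this kind. Its levels were 682, 85.4, 135 and 277 CPM in HFD WT and 204, 137, 117 and 102 CPM in HFD *Inpp4b*-/-. HFD *Inpp4b*-/- replicate 1 was the highest of its genotype, and HFD WT replicate 2 was the lowest of all 8 libraries. Its fitted log2 change was -1.08 (SE 0.55, edgeR adjusted p = 0.42), and -0.25 without HFD WT replicate 1.

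The orosomucoids are plasma glycoproteins that bind small lipophilic molecules. *Orm1* (ENSMUSG00000039196) stood at 1105, 505, 347 and 731 CPM in HFD WT and at 295, 297, 400.4 and 542 CPM in HFD *Inpp4b*-/-. *Orm2* (ENSMUSG00000061540), far less abundant, stood at 40.7, 5.29, 1.68 and 23.4 CPM and at 5.66, 4.57, 3.15 and 4.18 CPM. HFD WT replicates 1 and 4 were the highest 2 libraries for both. The log2 fold change was -0.81 for *Orm1* (SE 0.33, edgeR adjusted p = 0.319) and -2.01 for *Orm2* (SE 0.76, edgeR adjusted p = 0.284). Of the counts of both, *Orm2* made up 3.55% in HFD WT replicate 1 and 3.11% in replicate 4, against 0.482% to 1.88% in the other 6 libraries.

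*Apcs* (ENSMUSG00000026542) encodes serum amyloid P, a pentraxin. It stood at 195, 93.2, 103 and 81.7 CPM in HFD WT and at 78.1, 96.6, 97.2 and 84.2 CPM in HFD *Inpp4b*-/-. HFD WT replicate 1 alone was high, and HFD WT replicate 4, high for most of the other genes, was the lowest of its genotype. Its fitted log2 change was -0.41 (SE 0.25, edgeR adjusted p = 0.49), and -0.06 without HFD WT replicate 1.

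By exact permutation of the 8 libraries, which has 70 arrangements and cannot give a p under 0.0286, p lay between 0.143 (*Orm1*) and 0.543 (*Hp*) for the 10 genes. HFD WT replicate 1 was highest for each of the 10, so leaving it out had to bring each fold change nearer to 0. The fold change came to -2.24 for *Saa1*, -3.21 for *Saa2*, -1.23 for *Saa3* and -1.20 for *Orm2*. For *Saa4* it came to -0.02, and for *Orm1* to -0.46. No gene changed sign when any library was left out.

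**Figure D2:**
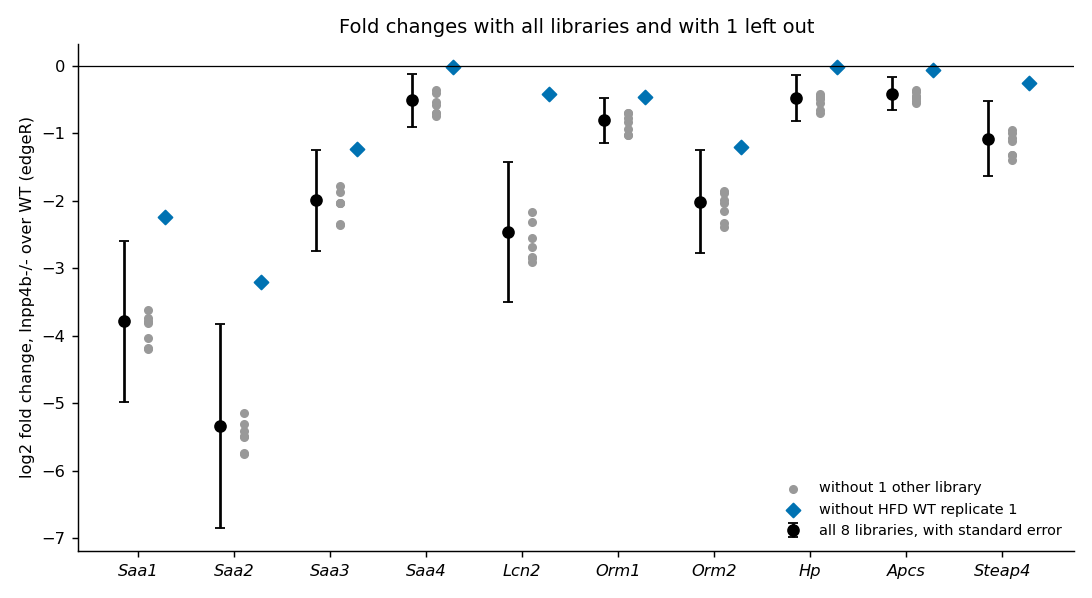
Fitted log2 fold change of HFD Inpp4b-/- against HFD WT for the 10 genes with all libraries and with each of the 8 libraries left out in turn. Leaving out HFD WT replicate 1, the highest library for each gene, has to move each gene towards 0. For Hp the move is from -0.48 to -0.02, and no point crosses 0.

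The spread between mice is given next, as the SD of log2 CPM within each genotype. This SD was larger in HFD WT than in HFD *Inpp4b*-/- for 10 of 10 genes, against 60.6% of all tested genes. It ranged from 0.558 to 3.82 in HFD WT (median 1.62, all tested genes 0.265) and from 0.155 to 1.04 in HFD *Inpp4b*-/- (median 0.425, all tested genes 0.219). *Saa2* had the largest SD in HFD WT of all 14866 tested genes, with *Saa1* in position 7, *Lcn2* in 32, *Orm2* in 53 and *Saa3* in 66. These are descriptions and no test of the spread was made. When HFD WT replicate 1 was left out, the SD remained larger in HFD WT for 9 of the 10.

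**Figure D3:**
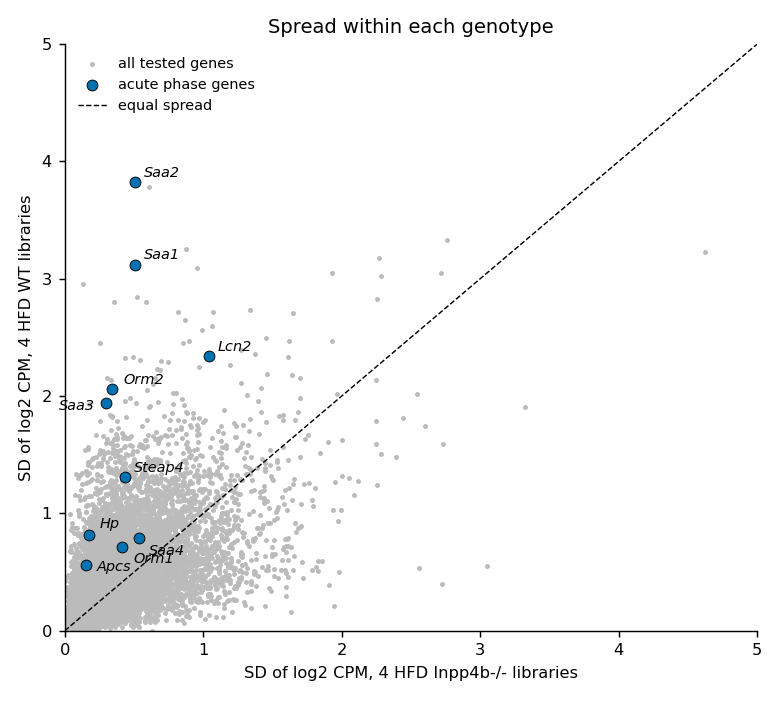
SD of log2 CPM over the 4 HFD WT libraries against that over the 4 HFD Inpp4b-/- libraries for the 10 genes, with all 14866 tested genes behind them. All 10 genes lie on the HFD WT side of the line of equal SD, with Saa2 at 3.82 in HFD WT.

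Within HFD *Inpp4b*-/- the 10 genes did not share 1 order. Replicate 4 was the highest of its genotype for 5 genes (*Saa1*, *Saa2*, *Saa4*, *Lcn2* and *Orm1*), replicate 1 for 3 (*Saa3*, *Orm2* and *Steap4*) and replicate 3 for 2 (*Hp* and *Apcs*). Replicate 1 was also the lowest for 6 genes. Some of these places were near ties. *Saa3* stood at 4.80, 4.78 and 4.77 CPM in replicates 1, 2 and 4, and *Apcs* at 97.2 and 96.6 CPM in replicates 3 and 2. *Orm1* stood at 295 and 297 CPM in replicates 1 and 2. The highest HFD *Inpp4b*-/- library exceeded the lowest by 1.24-fold (*Apcs*) to 5.41-fold (*Lcn2*).

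Over the 8 libraries, 32 of the 45 pairs of genes had a Pearson correlation of log2 CPM past an adjusted p of 0.05 (exact permutation test, Benjamini-Hochberg over 45 pairs), and 9 pairs did by Spearman's rho. Without the 2 libraries farthest from the median of the first gene of the pair, the median r went from 0.861 to 0.294, and r ranged from -0.934 to 0.952. For the pairs led by *Saa1*, *Saa2* or *Saa3*, these 2 libraries were HFD WT replicates 1 and 4. With the 6 libraries left, the lowest p of the exact permutation test was 0.00556 (0.125 after adjustment), so the absence of pairs past the threshold there does not tell whether a relation holds. The r of *Saa1* with *Saa2* went from 0.996 to 0.936, while that of *Saa1* with *Saa3* went from 0.965 to 0.294. That of *Lcn2* with *Orm1* went from 0.947 to 0.864. For that pair, replicate 1 of HFD WT and of HFD *Inpp4b*-/- were left out and HFD WT replicate 4 stayed in. Its change therefore cannot be compared with those of the pairs led by *Saa1*. *Saa2* and *Lcn2* kept the most alike order, with r = 0.929 and rho = 0.976 over the 8 libraries (exact permutation test, adjusted p = 0.00223 for r and 0.0128 for rho). Without the 2 libraries r was 0.952 (exact permutation test, adjusted p = 0.125).

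Per kilobase of annotated exon (RPKM, taken from the union of all annotated exons and so too low for genes with long, rarely used exons), the 10 genes spanned a wide range of levels. The median over the 8 libraries ran from 1350 for *Hp*, 584 for *Orm1* and 270.0 for *Saa4* through 97.7 for *Apcs*, 43.1 for *Steap4* and 20.9 for *Saa1*. *Orm2* followed at 6.36, *Saa2* at 5.74, *Lcn2* at 2.72 and *Saa3* at 1.83. *Saa1* ranged from 9.56 to 898 RPKM and passed the median level of *Saa4* only in HFD WT replicates 1 and 4. The ranges of *Orm2*, *Saa2*, *Lcn2* and *Saa3* overlapped, so their order is not beyond the spread between libraries. Together the 10 genes took up 1.28% of all counts in HFD WT replicate 1, 0.62% in replicate 4 and 0.271% to 0.368% in the other 6 libraries.

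The other genes of the acute phase pathway were examined in lists. In HFD WT replicate 1, all 10 genes were at least 2-fold above the median of the 8 libraries, against 2.25% of all tested genes. In HFD WT replicate 4, 6 of the 10 were (3.75% of all tested genes), and in the other 6 libraries none was. Of all tested genes, 2.2% and 1.74% were so in HFD WT replicates 2 and 3, and 1.73%, 1.32%, 1.59% and 1.63% in HFD *Inpp4b*-/- replicates 1 to 4. Of 31 other positive acute phase genes tested, 9 were at least 2-fold above the median in HFD WT replicate 1, 6 in replicate 4 and 0 elsewhere. Of 12 negative acute phase genes, which decline in a response, none was at least 2-fold above or at least 2-fold below the median in any library.

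**Figure D4:**
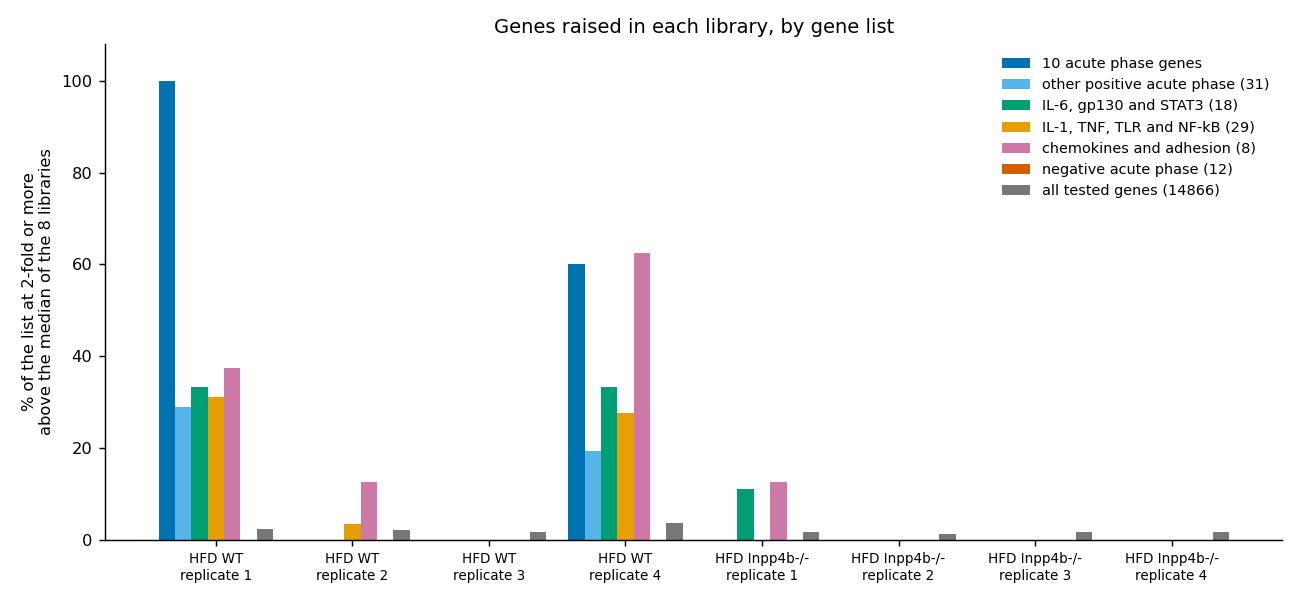
Percentage of the genes of each list that are at least 2-fold above the median of the 8 libraries, by library. For the 10 acute phase genes it is 100% in HFD WT replicate 1, 60% in replicate 4 and 0% in the other 6 libraries, while for all tested genes it stays between 1.32% and 3.75%.

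Between genotypes, none of the 31 other positive acute phase genes passed in edgeR or in DESeq2. By edgeR's unadjusted p, 5 were under 0.05 (13.9% of all tested genes). Their median log2 fold change was -0.25, with 26 of 31 below 0. *C3*, the central complement component, had the highest mean CPM over the 8 libraries, at 6820, 5510, 4610 and 5200 CPM in HFD WT and 5150, 4800, 5080 and 3840 CPM in HFD *Inpp4b*-/-. *Fga*, a fibrinogen chain, stood at 6640, 2730, 3140 and 5200 CPM in HFD WT and at 3690, 3730, 3730 and 3080 CPM in HFD *Inpp4b*-/-. *Fga* shared the high HFD WT replicates 1 and 4, and *C3* was high in replicate 1. *Hamp*, the iron hormone hepcidin, did not share them, with 1440, 742, 1530 and 1640 CPM in HFD WT and 1620, 1360, 1220 and 2100 CPM in HFD *Inpp4b*-/-.

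Among the 12 negative acute phase genes, *Serpina6*, which encodes corticosteroid-binding globulin, rose in HFD *Inpp4b*-/- (log2 fold change 0.84, SE 0.13, edgeR adjusted p = 0.0237). It stood at 197, 266, 214 and 183 CPM in HFD WT and at 364, 392, 352 and 425 CPM in HFD *Inpp4b*-/-, with no overlap. The other 11 did not pass, and the median log2 fold change over the 12 was 0.01. With *Serpina6*, 4 of the 12 had no overlap between the genotypes (8.72% of all tested genes), and all 4 were higher in HFD *Inpp4b*-/-. The other 3 were *Alb*, albumin (log2 fold change 0.24, edgeR adjusted p = 0.474), *Ttr*, transthyretin (0.31, 0.266), and *Apoa2*, an apolipoprotein (0.32, 0.246).

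**Figure D5:**
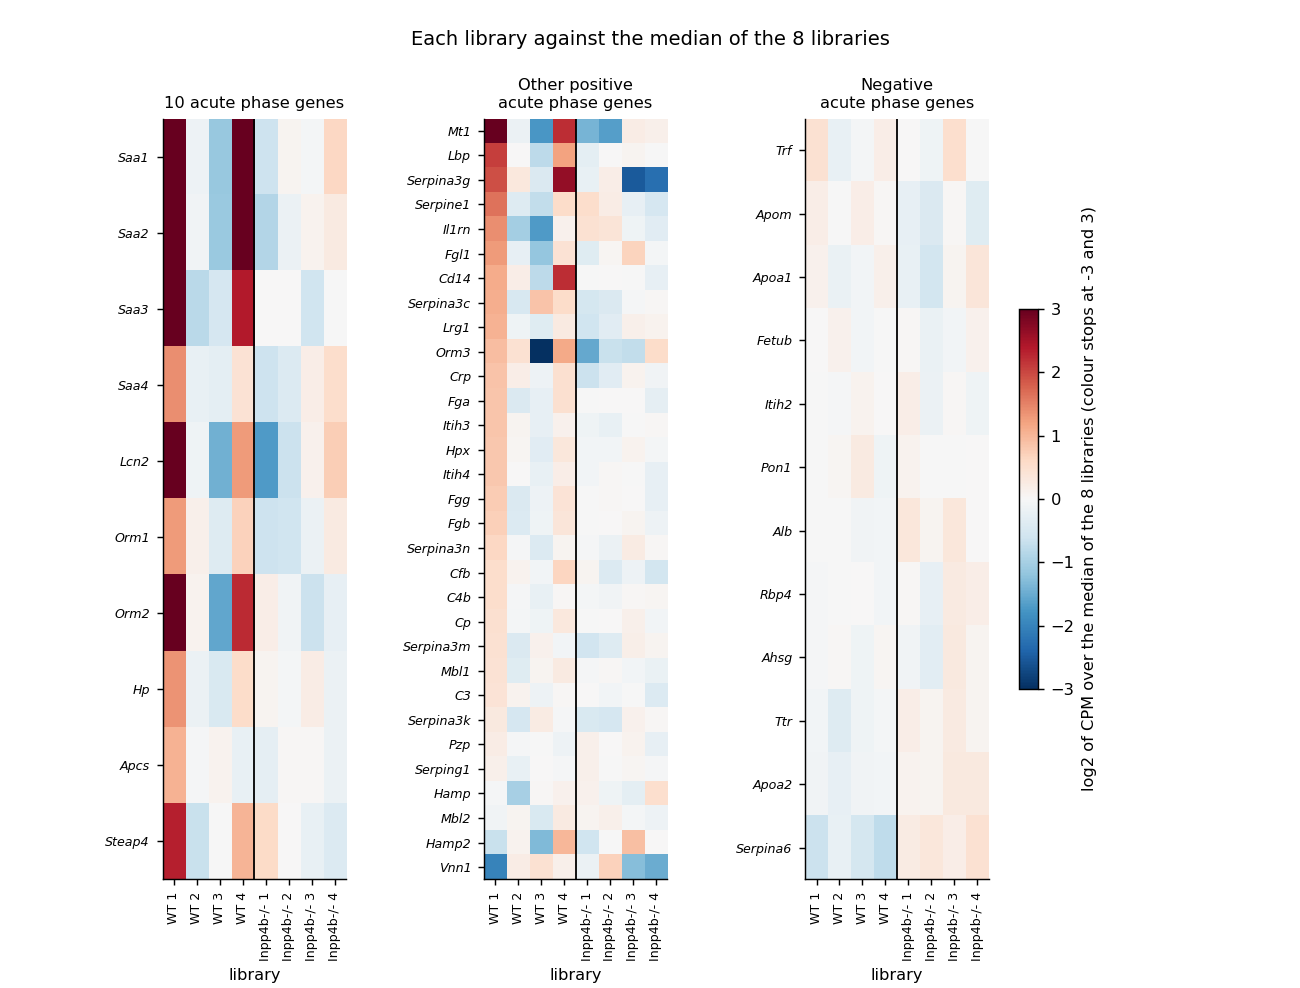
Level of the 10 acute phase genes and of the other positive and the negative acute phase genes in each library, as log2 of the ratio to the median of the 8 libraries, with the colours stopping at -3 and 3. HFD WT replicates 1 and 4 hold the high values of the 10 genes, among them 123-fold for Saa2 in replicate 1 and 24.3-fold in replicate 4.

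Of the 18 tested genes of the interleukin-6, gp130 and STAT3 pathway none passed in edgeR or DESeq2, 7 having an unadjusted edgeR p under 0.05 (13.9% of all tested genes), and the median log2 fold change was -0.24. In HFD WT replicates 1 and 4, 6 of the 18 were at least 2-fold above the median, as were 2 in HFD *Inpp4b*-/- replicate 1. *Il6* was listed too but was not among the genes in the table. *Stat3*, the transcription factor of the pathway, stood at 234, 104, 101 and 147 CPM in HFD WT and at 96.3, 87.4, 110 and 75.1 CPM in HFD *Inpp4b*-/- (log2 fold change -0.67, SE 0.25, edgeR adjusted p = 0.286). *Socs3*, a feedback inhibitor that STAT3 induces, stood at 32.9, 4.69, 6.50 and 110 CPM in HFD WT and at 66.3, 14.1, 9.14 and 12.7 CPM in HFD *Inpp4b*-/-. *Socs3* was therefore highest in HFD WT replicate 4, and its next highest library was HFD *Inpp4b*-/- replicate 1. The 10 acute phase genes did not share 1 position there. Counted from the highest of the 8 libraries, *Saa3*, *Orm2* and *Steap4* were in position 3 and *Hp* in position 4. *Saa1* and *Saa2* were in position 7, and the other 4 of the 10 were at their lowest. The positions of *Saa3* and *Orm1* were near ties with other HFD *Inpp4b*-/- libraries. *Il6ra*, the receptor, ranged from 69.2 to 106 CPM in HFD WT and from 37.5 to 89.3 CPM in HFD *Inpp4b*-/-.

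Of the 29 tested genes of the interleukin-1, TNF, Toll-like receptor and NF-kappa B pathway, none passed in edgeR and 4 (*Tlr2*, *Rela*, *Relb* and *Nfkbia*) were lower in DESeq2, against 2.12% of all genes. An unadjusted edgeR p under 0.05 was reached by 7, against 13.9% of all tested genes, and the median log2 fold change was -0.38 with 26 of 29 below 0. In HFD WT replicate 1, 9 of the 29 were at least 2-fold above the median, 8 in replicate 4 and 1 in replicate 2. *Il1r1*, the receptor of interleukin-1, stood at 394, 38.5, 51.6 and 190 CPM in HFD WT and at 54.1, 89.6, 96.0 and 84.9 CPM in HFD *Inpp4b*-/-. Its high libraries were those of *Saa1*, *Saa2* and *Saa3*. The cytokine genes themselves were near the limit of the counts. *Il1b* ranged from 0.606 to 2.69 CPM in HFD WT and from 0.394 to 1.3 CPM in HFD *Inpp4b*-/-, and *Tnf* did not exceed 0.447 CPM in any library. *Nfkb1*, an NF-kappa B subunit, ranged from 24.7 to 41.4 CPM in HFD WT and from 23.4 to 26.3 CPM in HFD *Inpp4b*-/-.

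Of the 8 tested chemokine and adhesion genes none passed in edgeR, 3 having an unadjusted p under 0.05 (13.9% of all tested genes), and 1 (*Icam1*) was lower in DESeq2 (2.12% of all genes). The neutrophil chemokine *Cxcl1* stood at 113, 4.09, 5.59 and 304 CPM in HFD WT and at 23.4, 7.17, 10.8 and 4.97 CPM in HFD *Inpp4b*-/-. *Icam1*, an adhesion molecule, stood at 44.7, 10.9, 9.53 and 57.9 CPM in HFD WT and at 7.52, 8.02, 7.76 and 4.77 CPM in HFD *Inpp4b*-/-. Both were higher in HFD WT replicate 4 than in replicate 1, the reverse of the 10 acute phase genes.

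Among the 9 hepatocyte transcription factors that act on acute phase promoters, *Foxa2* rose in HFD *Inpp4b*-/- (log2 fold change 1.16, SE 0.19, edgeR adjusted p = 0.0351). It stood at 28.6, 27.4, 25.0 and 42.3 CPM in HFD WT and at 60.7, 86.2, 54.1 and 74.1 CPM in HFD *Inpp4b*-/-, with no overlap. *Cebpb*, which encodes the C/EBP factor of the acute phase, stood at 257, 105, 87.8 and 202 CPM in HFD WT and at 82.4, 81.4, 124 and 125 CPM in HFD *Inpp4b*-/- (edgeR adjusted p = 0.4). *Cebpb* had the same 2 high libraries as *Saa1*, *Saa2* and *Saa3*, and *Foxa2* did not. DESeq2 called 2 of the 9 higher (*Foxa2* and *Foxa1*, against 1.92% of all genes) and 1 lower (*Cebpd*, against 2.12%). *Cebpd*, another C/EBP factor, stood at 18.1, 7.65, 4.58 and 16.5 CPM in HFD WT and at 5.16, 3.68, 5.95 and 5.08 CPM in HFD *Inpp4b*-/- (log2 fold change -1.24, SE 0.39, edgeR adjusted p = 0.213, DESeq2 adjusted p = 0.0366).

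None of the 16 iron and heme genes or the 7 serum amyloid A and lipoprotein genes passed in edgeR, while DESeq2 called 1 of each list higher (*Steap2* and *Cd36*), against 1.92% of all genes. By edgeR's unadjusted p, 2 of the 16 and 1 of the 7 were under 0.05, shares near the 13.9% of all tested genes. *Cd163*, the receptor that clears haptoglobin bound to hemoglobin, ranged from 1.99 to 6.05 CPM in HFD WT and from 2.39 to 5.86 CPM in HFD *Inpp4b*-/-, and was lowest in HFD WT replicate 1. *Slc22a17*, a receptor of lipocalin 2, ranged from 1.11 to 2.19 CPM and from 1.83 to 2.37 CPM. *Scarb1*, a lipoprotein receptor that also binds serum amyloid A, ranged from 156 to 200 CPM and from 148 to 209 CPM. These partners did not share the high libraries of the genes whose products they bind.

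The tested genes outside the 10 whose log2 CPM followed the mean z-score of the 10 most closely over the 8 libraries were *Lbp* (r = 0.978), *Shld2* (0.977), *Prdm4* (0.976), *AA986860* (0.967) and *Hpx* (0.962). *Lbp* encodes the lipopolysaccharide-binding protein and *Hpx* the heme carrier hemopexin, both acute phase proteins. Without HFD WT replicates 1 and 4, r was 0.84 for *Lbp*, 0.901 for *Shld2* and 0.735 for *Hpx*, but 0.358 for *Prdm4* and 0.364 for *AA986860*. *Lbp* stood at 319, 75.2, 43.7 and 172 CPM in HFD WT and at 61.2, 75.3, 79.3 and 74.9 CPM in HFD *Inpp4b*-/-.

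Markers of other cells moved with the high libraries in part. Of 12 neutrophil markers only *S100a8*, *S100a9* and *Retnlg* were among the genes in the table, and their sum was 3.47 CPM in HFD WT replicate 1 and 4.88 CPM in replicate 4, against 0.236 to 1.73 CPM in the other 6 libraries. The 11 Kupffer cell and macrophage markers summed to 80.6 CPM in HFD WT replicate 1, the lowest of all, and to 142 to 270 CPM in the other 7. The 5 red blood cell markers summed to 431 CPM in HFD WT replicate 4, but to 114 CPM in HFD WT replicates 1 and 3, the lowest of all. Elsewhere they summed to 208 to 346 CPM. One of them, *Hba-a2*, fell in HFD *Inpp4b*-/- (log2 fold change -2.92, SE 0.54, edgeR adjusted p = 0.057) and did not follow the sum, with 5.09, 3.84, 2.86 and 0.806 CPM in HFD WT and 0.583, 0.237, 0.386 and 0.449 CPM in HFD *Inpp4b*-/-. It is 1 of several near-identical alpha-globin copies, so its count is uncertain. HFD WT replicate 4 had the fewest counts of the 8 libraries. The part of these cells and of depth in the levels of the 10 genes was not tested.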

How the data were processed

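Liver RNA of 4 HFD WT and 4 HFD *Inpp4b*-/- mice was compared, with genotype, replicate number and age from the labels and the diet from the study's methods. From 150-base read pairs aligned by HISAT2 to GRCm38, the authors made counts per gene with HTSeq and deposited them raw, without normalization. The table holds genes read at least once in every library of 1 genotype or the other. The signal the authors also deposited, counts divided by a size factor, was used only to check that its ratio to the count was constant within each library. The annotation and strand setting of the counting are not given in the sources used here. All 18095 identifiers matched GENCODE M21.

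The main test was the quasi-likelihood test of edgeR 4.0.16 on genes kept by filterByExpr, with TMM and no covariate, after a check on simulated data. Calls needed an adjusted p under 0.10 (Benjamini-Hochberg over 14866 genes) together with a fold change over 1.3, the study's thresholds. DESeq2 1.42.0 and R 4.3.3 were used. Log2 CPM took a prior count of 2 and correlations used Python 3.11.15 with scipy 1.17.1. The spread between mice sets the precision, with a biological coefficient of variation of 0.251. The alternatives were other normalizations, tools, filters and thresholds, a replicate block, summed paralogs and the removal of single libraries.

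The 10 genes and all lists were chosen with earlier results of these data known. Named are the 10, the genes of the pathway lists that edgeR called, up to 4 abundant genes of each list or direct partners of the 10, and the 5 most alike genes. *Hamp*, *Hba-a2*, *Tat*, *Cps1* and the list genes called by DESeq2 alone, among those that edgeR tested, were chosen after their values were seen.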

Additional observations from a re-analysis of the deposited data

Results flagged for a closer look

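In 2 of 20 groups of 4 libraries (10 genes in each genotype), the gap between the most extreme library and its nearest neighbour, divided by the range of the group, passed Dixon's 95% critical value. Chance gives about 1 in 20 such groups. *Lcn2* in HFD WT replicate 1 stood at 118.5 CPM, with the next HFD WT library at 17.4 CPM. *Saa3* in HFD *Inpp4b*-/- replicate 3 stood at 3.154 CPM, below 4.77, 4.78 and 4.80 CPM in the other 3 libraries of that genotype. *Saa1* and *Saa2* were not past the limit in HFD WT, where replicate 4 lay between replicate 1 and the others.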

How the results depend on the processing

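Of 184 fold changes of the 10 genes under alternative settings, 181 kept their direction and their side of the threshold, 0 reversed and 3 came to pass it. These 3 were *Saa1* (-3.80) and *Saa2* (-5.35) in DESeq2 and *Saa2* without HFD WT replicate 2 (-5.76). The settings of an adjusted p under 0.05 and of no fold change threshold reused the main fit. The lowest edgeR adjusted p there was 0.175, so the values of these settings were bound to stay the same. Of the 10 genes, edgeR called 0 and DESeq2 called 2, and 0 to 1 were called when a library was left out. In the pathway lists edgeR called 2 of 130 genes, against 1.17% of all tested genes. DESeq2 called 12 of 138, against 688 of 18095 genes over all when counted in the same way. Both totals include any gene without an adjusted p. Of the 17016 genes with one, 4.04% were called. These 138 include genes that edgeR's filter left out, so not every one of the 12 is named above. Leaving out a library gave 1 to 8 calls in edgeR (8 without HFD WT replicate 2, 5 without HFD WT replicate 3, and 1 each without replicate 1 of HFD WT and replicate 2 of HFD *Inpp4b*-/-). Over all tested genes the 174 calls became 688 in DESeq2, 71 at an adjusted p under 0.05, and 53 (without HFD *Inpp4b*-/- replicate 2) to 345 (without HFD WT replicate 2) when a library was left out. The 32 correlated pairs became 0 without the 2 farthest libraries, where 6 libraries gave a lowest adjusted p of 0.125, and 31 after centring within genotype. The SD was larger in HFD WT for 9 to 10 of the 10 genes when a library was left out. The cause of these changes was not tested.

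The genotypes share replicate numbers. Deviations from the group means of same-numbered libraries correlated at -0.114, -0.131, -0.01 and -0.17. Those of differently numbered libraries correlated at -0.034 to 0.139. Same-numbered libraries were thus not more alike than others by this measure. The labels do not say what the numbers mean, and whether they pair the mice cannot be told from these values. With the number as a replicate block, edgeR called 0 of the 10 genes and 26 genes in all, and gave -1.77 for *Saa1* and -2.50 for *Saa2*.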
